A study of Homo sapiens with 20 samples.

Results

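Induction of wild-type EHMT1 was examined in LNCaP cells, an androgen-dependent human prostate adenocarcinoma line, by comparing the transcriptome of the EHMT1-WT stable line after doxycycline (Dox) with that of the same line left untreated (Veh). The members are the samples that the labels name EHMT1-WT with Veh or with Dox, 4 of the 20 samples analysed. The line carries a lentiviral, tetracycline-inducible vector with the V5-tagged open reading frame of EHMT1, was selected with puromycin, and was grown in RPMI medium with fetal bovine serum. Dox cells received 0.25 µg/mL of doxycycline for 2 days. A further 3 lines of the same make, each with Veh and Dox samples, carry EHMT1 in which lysine 450, the lysine next to it or both were replaced by arginine (K450R, K451R and K450RK451R), and 4 further samples of LNCaP cells received a nontarget siRNA (siNTC) or an siRNA against EHMT1 (siEHMT1) at 20 nM for 2 days. No line with an empty or unrelated inducible vector was analysed here, so an effect of EHMT1 and an effect of doxycycline itself cannot be told apart within the WT line, which is moreover a single line. The study asked what induced WT EHMT1 does to transcription in these cells and how the lysine mutants differ from it.

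EHMT1, also called GLP, is a lysine methyltransferase that works as a heterodimer with EHMT2 (G9a) and places mono- and dimethyl marks on lysine 9 of histone H3, marks that go with repressed chromatin. The pair acts in corepressor assemblies with zinc-finger proteins such as WIZ and with the REST, CoREST and LSD1 (KDM1A) machinery that keeps neuronal genes silent outside neurons. In prostate cancer cells, LSD1 and the EHMT enzymes have also been studied as coactivators.

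The level of the introduced gene checks the Veh and Dox labels, but counts per gene do not show which allele a line carries. EHMT1 (ENSG00000181090) spans bases 140513444 to 140764468 of chromosome 9 in GRCh37. The stretch below is genomic sequence of its exon 8 in transcript ENST00000460843, GRCh37 chr9:140648692-140648743 on the plus strand, shown because it holds the residues that separate the WT line from the mutant lines. Capitals mark codon 450 and the codon after it, both AAG (lysine).

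EHMT1 exon 8, mutated lysine codons: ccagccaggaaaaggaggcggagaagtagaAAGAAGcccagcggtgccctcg

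In the WT line EHMT1 had 447 and 457 counts in the columns with Veh and 3547 and 3524 counts in the columns with Dox. Its summed level was 76.2 CPM (counts scaled to a common library size) with Veh and 797 CPM with Dox, a log2 ratio of 3.39 (95% interval 3.29 to 3.49) and a 10.5-fold difference. The log2 ratio was 3.32 in K450R, 3.34 in K451R and 2.89 in K450RK451R, and the WT response differed from that of the mutants by 0.21 (edgeR adjusted p = 0.855). These counts include reads of the introduced open reading frame, and the deposited counts do not separate it from the endogenous gene.

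The columns numbered 1 and 2 of a condition differed by no more than counting noise: their chi-square per degree of freedom lay between 0.995 and 1.02 in the 8 conditions of the stable lines. Each pair was therefore summed and counted as 1 library, and the WT comparison rests on 1 library a side, with 12407739 counts for Veh and 9060741 for Dox. The 6 libraries of the mutant lines held from 8436791 to 11807787 counts. A log2 ratio of 1 library against another has no replicate check and carries no p-value. It is given with a 95% interval (exact Clopper-Pearson for the Dox share of a gene's counts), which covers counting error only, since the reads have no molecular identifiers. CPM were scaled by TMM, edgeR's scaling that makes the bulk of genes level between libraries. Genes were called at 2 levels: at least 2-fold with at least 50 counts summed over both libraries, or at least 25% higher, or by the same ratio lower (20%), with at least 200 summed counts and an interval on the same side of 0. The latter is named the 25% level. The luminal prostate genes that mark LNCaP cells were abundant in both libraries, with KLK3 at 91928 counts with Veh and 73838 with Dox. Of 8 markers of basal epithelium, none reached 200 summed counts and 2 reached 50. KRT5, KRT17, TP63 and CAV1 had 0 counts in both libraries, and all 8 together held 137 counts with Veh and 98 with Dox. Of 13 markers of stroma, endothelium and immune cells, 2 reached 200 counts (VIM and COL1A1), and COL1A2, DCN, LUM, CDH5, PTPRC and CD14 had 0 counts in both.

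With Dox, most genes of the WT line stayed near their Veh level. Of 9154 genes with at least 200 summed counts, 88.9% differed by less than the 25% level in either direction, and from the 5th to the 95th percentile the log2 ratios ran from −0.36 to 0.32. At the 2-fold level, 60 of 12324 genes (0.487%) were called higher with Dox and 91 (0.738%) lower. At the 25% level, 397 of 9154 genes (4.34%) were called higher and 537 (5.87%) lower. Scaling by total counts in place of TMM turned this balance to 527 higher and 435 lower. The standard deviation of the log2 ratio over genes was 0.213 in WT, against 0.235 in K450R, 0.249 in K451R and 0.263 in K450RK451R. Calls at the 25% level numbered 616 higher (7.09%) and 528 lower (6.08%) for K450R. They numbered 704 (7.64%) and 634 (6.88%) for K451R, and 902 (9.51%) and 781 (8.24%) for K450RK451R. Whether WT induction gave a smaller response than induction of a mutant was not tested, since each value comes from 1 pair of libraries. In the plot of all genes, EHMT1 stood apart at the top and the nuclear RNAs NEAT1 and MALAT1 at the bottom.

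**Figure D1:**
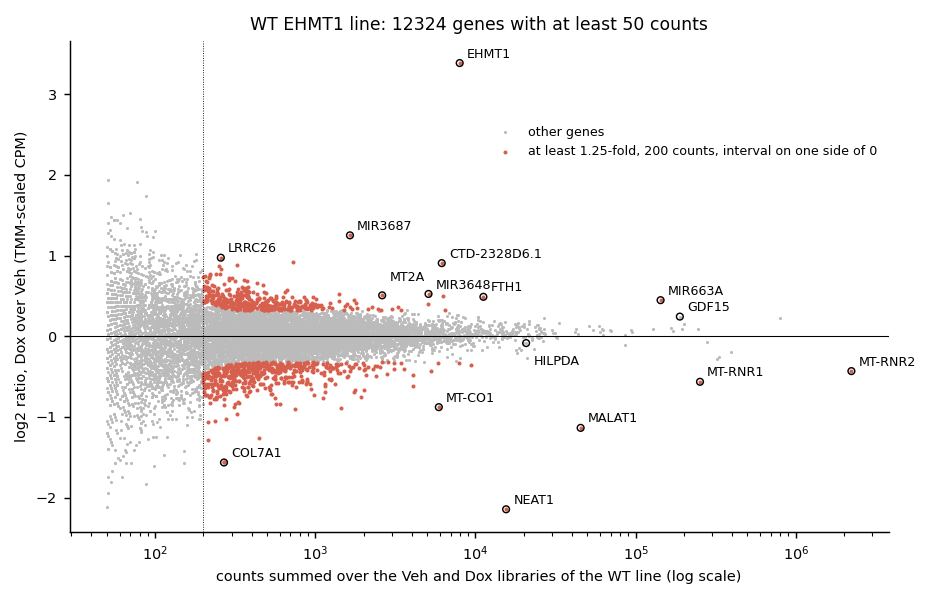
Log2 ratio of Dox over Veh in the WT line (vertical axis) against the counts summed over both libraries (horizontal axis, log scale) for the 12324 genes with at least 50 counts. Red points are the genes called at the 25% level, and the dotted line marks its minimum of 200 counts. EHMT1 is at 3.39, NEAT1 at −2.14 and MALAT1 at −1.13, while most other deeply counted genes lie close to 0.

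Besides EHMT1, the largest differences among genes with at least 2000 counts were in nuclear RNAs. NEAT1, the architectural noncoding RNA of paraspeckles (ENSG00000245532, chromosome 11 from 65190245 to 65213011), had 6553 and 6741 counts in the Veh columns and 1104 and 1145 in the Dox columns. It was 4.42-fold lower with Dox, a log2 ratio of −2.14 (interval −2.21 to −2.08). MALAT1, its neighbour on chromosome 11 (65265111 to 65275544) and a noncoding RNA of nuclear speckles, had 16618 and 17250 counts with Veh and 5729 and 5803 with Dox, a log2 ratio of −1.13 (−1.17 to −1.10). Both RNAs were lower with Dox in every line. For NEAT1 the log2 ratio was −1.64 in K450R, −1.92 in K451R and −0.45 in K450RK451R, and for MALAT1 −0.95, −1.14 and −0.45. The edgeR test of WT against the mutants gave an adjusted p of 0.542 for NEAT1 and 0.755 for MALAT1. With Dox, NEAT1 lay between 176 and 268 CPM in all 4 lines, whereas with Veh it ranged from 334 CPM in K450RK451R to 1120.3 CPM in WT, so the libraries differed more with Veh than with Dox. Together NEAT1 and MALAT1 took 0.380% of all counts of the WT line with Veh and 0.152% with Dox. In bulk RNA, fewer cells holding a transcript and less of it per cell cannot be told apart.

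A list of 30 nuclear-retained RNAs and regulators of splicing, headed by NEAT1 and MALAT1, was the list with the most members called lower. By share, the mitochondrially encoded list stood above it (88.9%). The gene lists were written with earlier results of these data known. All 30 members of the nuclear list had at least 200 counts. None was called higher and 13 were called lower at the 25% level, 43.3% against the 5.87% of all genes, and the list's median log2 ratio was −0.29 against 0.01 over all genes. OGT, the enzyme that attaches O-linked N-acetylglucosamine and whose RNA is known to retain an intron in the nucleus, had 1197 counts with Veh and 554 with Dox, a log2 ratio of −0.69 (−0.84 to −0.55). LUC7L3, a U1-associated splicing factor, had 256 and 124 counts (−0.62, interval −0.95 to −0.31). The cyclins CCNL1 and CCNL2, partners of CDK11 in splicing, were at −0.59 and −0.53, the splicing factors RBM5, SRSF5 and SRSF7 at −0.55, −0.53 and −0.38, and the kinase CLK2 at −0.50. CLK1 was at −0.26 and CLK4 at 0.24, so the CLK kinases did not lie to the same side. The list's median was −0.23 in K450R, −0.35 in K451R and −0.16 in K450RK451R, with 9, 16 and 7 members called lower, where 6.08%, 6.88% and 8.24% of all genes were called lower. Lower values of this list with Dox thus occurred in each line, and the ratios of OGT, RBM5, SRSF5 and SRSF7 were lower in WT than in each mutant, although none of these differences passed the test against the mutants (edgeR adjusted p of 0.48 for OGT, 0.60 for RBM5, and 0.74 for SRSF5 and for SRSF7).

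**Figure D2:**
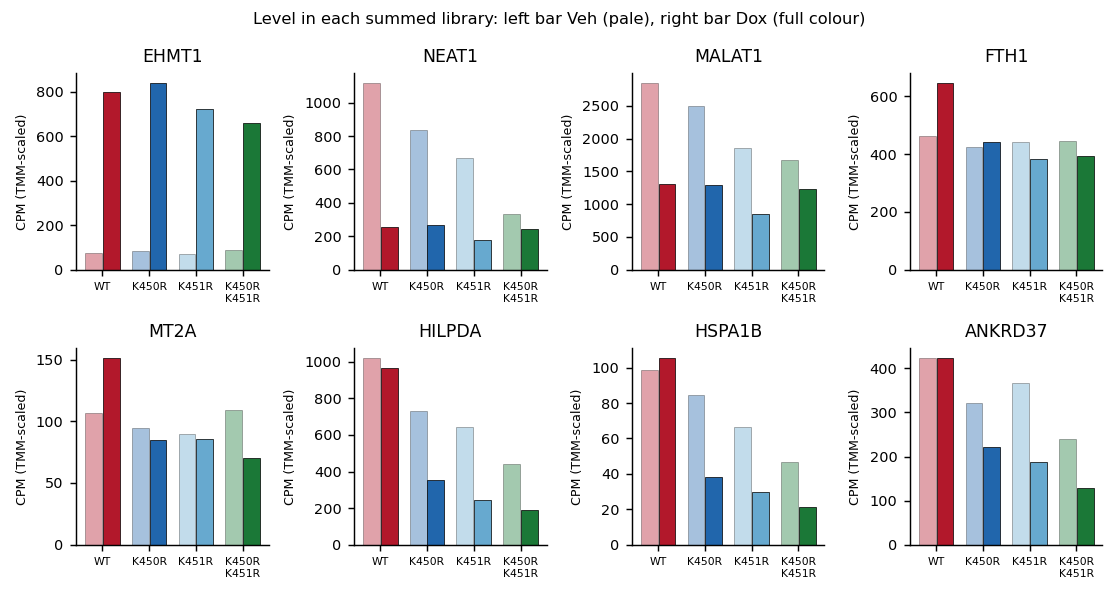
Level in CPM (vertical axes, from 0) of 8 genes in the 8 summed libraries, with a pale bar for Veh and a full bar for Dox in each of the WT, K450R, K451R and K450RK451R lines (horizontal axes). Each bar is 1 library without an error bar. NEAT1 and MALAT1 are lower with Dox in all lines, FTH1 and MT2A are higher with Dox in WT, and HILPDA, HSPA1B and ANKRD37 keep their level in WT and are lower with Dox in the mutants.

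RNAs encoded by the mitochondrial genome were also lower with Dox. Of 15 in the table, 9 had at least 200 counts, and 8 of these (88.9%, against 5.87% of all genes) were called lower at the 25% level, with a median log2 ratio of −0.61. MT-CO1, a core subunit of cytochrome c oxidase, had 4199 counts with Veh and 1708 with Dox, a log2 ratio of −0.88 (−0.96 to −0.80). MT-CO2 was at −0.89, MT-CO3 at −0.61, MT-CYB of complex III at −0.73, and MT-ND1 and MT-ND4 of complex I at −0.63 and −0.58. MT-ND5, with 189 and 154 counts, was the exception at 0.12 (−0.19 to 0.44). The mitochondrial ribosomal RNAs MT-RNR1 and MT-RNR2 were at −0.56 and −0.43, and their share of all counts was 12.9% with Veh and 9.71% with Dox. Nuclear genes of the respiratory complexes showed no such shift: of 54, 52 were measured, and their median was 0.00. None was called in either direction, where 4.34% of all genes were called higher and 5.87% lower. The mitochondrial ribosomal proteins, which the nucleus encodes, had a median of 0.03. Of 52, 2 were called higher (3.85%) and 1 lower (1.92%), near or below the shares of all genes. Among the mutants, the median of the mitochondrially encoded list was −0.81 in K451R, −0.75 in K450RK451R and 0.24 in K450R. In K451R 9 of 9 members were called lower (against 6.88% of all genes), in K450RK451R 8 of 10 (against 8.24%), and in K450R 4 of 9 were called higher (against 7.09%) and none lower. The lower mitochondrial RNAs of the WT line therefore had counterparts in 2 of the 3 mutant lines.

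FTH1 and MT2A, genes of iron and metal handling, were higher with Dox in the WT line, and their response exceeded that of the mutants. FTH1, the ferritin heavy chain that stores iron (chromosome 11 from 61727190 to 61735106), had 2645 and 2827 counts in the Veh columns and 2805 and 2938 in the Dox columns of WT, which is 461 CPM against 647 CPM and a log2 ratio of 0.49 (0.44 to 0.54). Its level in the mutants lay between 384 and 446 CPM in all 6 libraries, so the WT Dox library was above each of the other 7. MT2A, a zinc- and copper-binding metallothionein (chromosome 16 from 56642496 to 56643409), had 1268 counts with Veh and 1348 with Dox, 107 CPM against 152 CPM, a log2 ratio of 0.51 (0.40 to 0.62). In the mutants its ratio was −0.15 (K450R), −0.07 (K451R) and −0.63 (K450RK451R). The Dox response of WT exceeded that of the mutants by 0.60 for FTH1 (standard error 0.12, adjusted p = 0.021) and by 0.80 for MT2A (standard error 0.16, adjusted p = 0.029) in edgeR's test. Without the K451R line the difference for FTH1 was 0.55 and no longer passed. MT1X, a related metallothionein, was at 0.37 in WT (551 and 534 counts) and below 0 in each mutant, but did not pass that test (edgeR adjusted p = 0.44). Of 18 genes of metal binding and oxidative stress, 12 were measured and 4 (33.3%, against 4.34% of all genes) were called higher, none lower: FTH1, MT2A, MT1X and the cystine transporter SLC7A11 (0.35, interval 0.16 to 0.54). Their median was 0.23 in WT, against 0.01 in K450R, −0.08 in K451R and −0.06 in K450RK451R. NQO1 and TXNRD1, standard targets of the oxidative stress factor NRF2, were at 0.02 and −0.05, and HMOX1, heme oxygenase, at 0.19 (−0.00 to 0.39). The ferritin light chain FTL was at 0.10 (0.04 to 0.16).

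Replication-dependent histone genes, whose RNAs lack poly(A) tails and are kept in total-RNA libraries, lay slightly higher with Dox. Of 54, 36 were measured and 33 had a ratio above 0, as did 4837 of all 9154 genes. The list's median was 0.14, but only 2 were called higher: HIST1H2AB (151 and 160 counts, 0.50) and HIST1H2AL (309 and 324 counts, 0.49). These 2 are 5.56% of the list, close to the 4.34% of all genes. The median of the histone list was 0.07 in K450R, 0.11 in K451R and 0.08 in K450RK451R. By transcript length, the 2267 genes with the shortest transcripts (61 to 2406 bases) had a median of 0.04 in WT. In K450R, K451R and K450RK451R it was −0.03, −0.04 and −0.04.

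Among genes with at least 2000 counts, apart from EHMT1 and the genes that match ribosomal DNA, the highest ratios were those of MT2A, MIF, FTH1, the pseudogene RP11-742N3.1, PPDPF and GNG5. MIF, a cytokine that inhibits macrophage migration, had 3046 counts with Veh and 3212 with Dox, a log2 ratio of 0.50 (0.42 to 0.57), and lay between −0.02 and 0.07 in the mutants (edgeR adjusted p of 0.13 for the difference). RP11-742N3.1, a processed pseudogene, was at 0.40. PPDPF was at 0.36 in WT and at 0.44 in K450R, and GNG5, a G-protein gamma subunit, at 0.36. The lowest in the same class were NEAT1, MALAT1, MT-CO1, SH3D21, MT-CO3 and MT-RNR1. SH3D21, which had 1361 counts with Veh and 642 with Dox, was at −0.66 (−0.80 to −0.53) and at −0.59, −0.64 and −0.29 in the mutants. Its ratio was therefore below 0 in all 4 lines.

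Among the less deeply counted genes, with at least 200 counts, the highest ratios apart from those same genes were those of LRRC26, RP5-940J5.9, PPARD, PPAP2B, FBXO5, UBA52P3, ABHD14A, RPS18P12, SGK223 and NCEH1, between 0.74 and 0.97. LRRC26, an auxiliary subunit of a potassium channel, had 104 counts with Veh and 153 with Dox, a log2 ratio of 0.97 (0.61 to 1.35), and was also higher in the mutants (0.84, 1.00 and 0.53). PPARD, a nuclear receptor for fatty acids, had 137 and 189 counts (0.88, interval 0.56 to 1.21) and FBXO5, the inhibitor of the anaphase-promoting complex also known as EMI1, 111 and 148 (0.83). None of these 10 genes passed the test against the mutants (edgeR adjusted p from 0.610 to 0.956). RP5-940J5.9 lies opposite GAPDH, which had 245363 counts, and UBA52P3 and RPS18P12 are processed pseudogenes, so these 3 counts may hold reads of other genes. ABHD14A overlaps ABHD14B and PCBP4 on the opposite strand. The lowest ratios after NEAT1 were those of COL7A1, the collagen of anchoring fibrils, and EIF4A1, an RNA helicase of translation initiation, both with 215 counts with Veh and 54 with Dox (−1.56, interval −2.03 to −1.14). COL7A1 was at −0.89 and −0.56 in the single mutants and at 0.35 in K450RK451R, and EIF4A1 was at −0.50, −1.95 and −0.32. EIF4A1, at 18.1 CPM with Veh and 6.09 CPM with Dox, overlaps SNORA48, SNORD10 and SNORA67 on the same strand. Each of these had 0 counts in the WT line, so how reads of the shared stretches were assigned is uncertain. SSPO (−1.28), NOXA1, an activator of NADPH oxidase (−1.06), MAMDC4 (−1.03) and the pseudogene RP4-575N6.2 (−0.97) followed, together with the small Cajal body RNAs SCARNA5 (342 and 106 counts, −1.27) and SCARNA9 (173 and 62 counts, −1.05). SCARNA5 lies within ATG16L1, SCARNA9 within KIAA1731 and MAMDC4 overlaps PHPT1 on the same strand, so their counts can include reads of those genes. SCARNA5 had the smallest adjusted p of these genes against the mutants (0.095, edgeR), and its ratio lay between −0.26 and 0.06 there.

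Most of EHMT1's partners differed by less than the 25% level between Dox and Veh. All 18 genes of the EHMT and partner complex list were measured. At the 25% level none was called lower, and 3 (16.7%, against 4.34% of all genes) were called higher. These were EHMT1 itself, MPHOSPH8 and ZNF518A (0.39, from 184 and 180 counts). EHMT1 is the induced gene, so its call was set by the design and the share of 16.7% is not a result about its partners. EHMT2, the partner in the heterodimer, had 968 counts with Veh and 734 with Dox, a log2 ratio of 0.02 (−0.12 to 0.16). KDM1A (LSD1) was at 0.03 (−0.10 to 0.15), REST at 0.02 (−0.11 to 0.15), WIZ at 0.15 (−0.04 to 0.34) and the CoREST scaffold RCOR1 at −0.15 (−0.31 to 0.00). MPHOSPH8, the chromodomain protein of the HUSH silencing complex, had 144 and 147 counts, a ratio of 0.45 (0.11 to 0.79), and −0.32, −0.32 and −0.27 in the mutants (edgeR adjusted p of 0.65 for the difference). The histone deacetylases HDAC2 and HDAC1 were at 0.29 (0.15 to 0.42) and −0.21 (−0.32 to −0.10). A list of 19 other writers and erasers of H3K9 methylation also held the DNA methyltransferase DNMT3A. Of its 19 genes, 15 were measured and none was called in either direction, where 4.34% of all genes were called higher and 5.87% lower. Their extremes were SUV39H1 at 0.35, whose interval from −0.03 to 0.72 held 0, and the demethylase-like JMJD1C at −0.27.

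Few of the genes that REST keeps silent were measured in these cells. Of 30, 3 reached 200 counts and none was called: the synaptotagmin SYT4 had 5699 and 3937 counts (−0.11, interval −0.17 to −0.06), the potassium channel gene KCNH2 was at 0.23 (−0.10 to 0.56) and the neurofilament NEFL at −0.01 (−0.43 to 0.39). Of 16 neuroendocrine markers, ENO2, neuronal enolase and also a target of hypoxia factors, was the only one with 200 counts. It had 4942 counts with Veh and 2939 with Dox, a log2 ratio of −0.33 (−0.40 to −0.26) called lower at the 25% level, and was at −0.41, −0.38 and −0.43 in the mutants. At the lower minimum of 50 counts, 6 of the REST-repressed genes and 4 of the markers were measured, and none was called at the 2-fold level.

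Few genes of the prostate program were called. Over all genes, 4.34% were called higher and 5.87% lower, so these low counts do not set the program apart. Of 12 luminal and LNCaP genes none was called, and 10 had a ratio above 0. The homeobox factor HOXB13 was at 0.24 (0.18 to 0.31) and KLK3 (prostate-specific antigen) at 0.10 (0.09 to 0.12). Of 29 measured androgen-responsive genes 1 (3.45%) was called higher, ACPP (212 and 219 counts, 0.47), and none lower. Their median was 0.05. Of 48 measured E2F and DNA replication genes, 2 were called higher (4.17%, against 4.34% of all genes) and 5 lower (10.4%, against 5.87%), with a median of 0.02, the replication helicase factor GINS4 at −0.59 (158 and 78 counts), DNA ligase LIG1 at −0.36, the origin protein ORC1 at −0.35 and the repair gene BRCA1 at 0.37. The 51 mitotic genes had a median of −0.00 with 3 called higher (5.88%) and 2 lower (3.92%), from NUF2 of the kinetochore at −0.56 to the ubiquitin-conjugating enzyme UBE2S at 0.45. The 44 measured MYC targets had a median of 0.05 with 5 higher (11.4%) and 4 lower (9.09%). Their extremes were EIF4A1 at −1.56 (215 and 54 counts, with the overlaps given above) and the ribosome assembly factor WDR12 at 0.56. MYC itself had 1259 counts with Veh and 1192 with Dox, a log2 ratio of 0.34 (0.22 to 0.46), and was at 0.33, 0.62 and 0.55 in the mutants. CCND1, cyclin D1, was at 0.25 (0.19 to 0.30) in WT and between −0.08 and 0.05 in the mutants (edgeR adjusted p of 0.68). DUSP4, a phosphatase that dampens MAPK signalling, was at 0.33 in WT and at 0.41, 0.54 and 0.65 in the mutants. The cytoplasmic ribosomal proteins had a median of 0.02 with 1 of 71 called lower (1.41%, against 5.87% of all genes) and none higher.

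**Figure D3:**
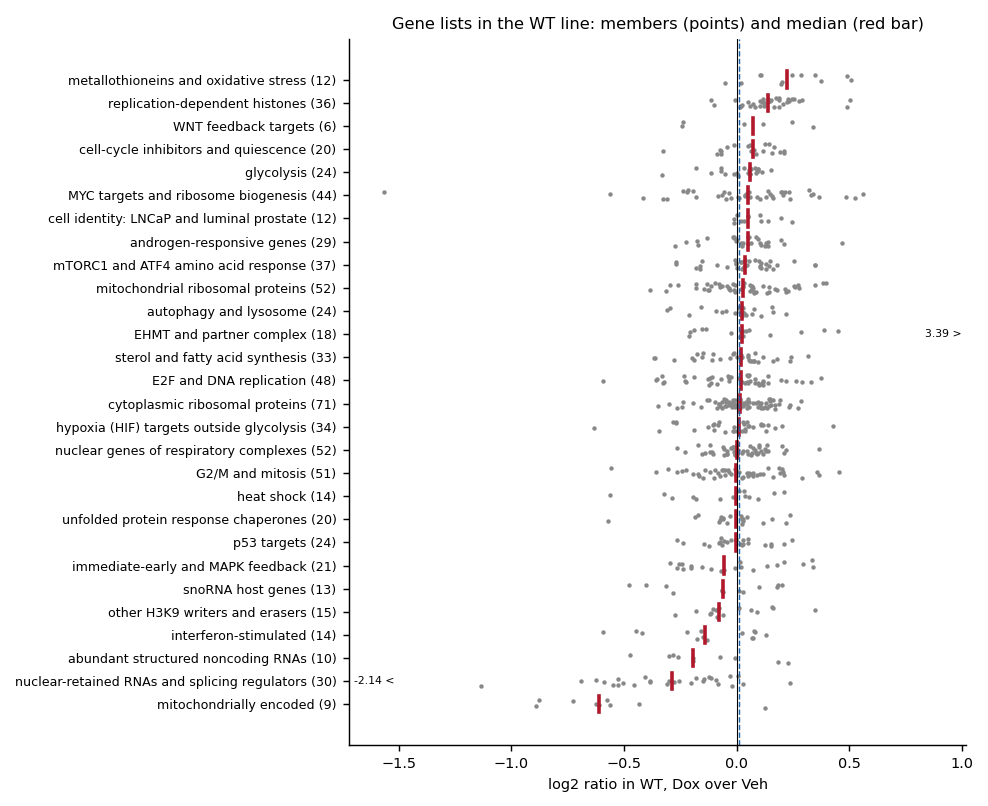
Log2 ratio of Dox over Veh in the WT line (horizontal axis) for the members with at least 200 counts (points, their number in parentheses) of each gene list that had at least 6 of them, with the list's median as a red bar. The dashed line is the median over all genes at 0.01, and values outside the axis are written at its edge. Among these lists, mitochondrially encoded genes (median −0.61) and nuclear-retained RNAs (−0.29) lie lowest, and metallothionein and oxidative stress genes (0.23) highest.

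A further group of genes was level in the WT line and lower with Dox in the mutant lines. The Dox response of WT was tested against that of the 3 mutant lines with edgeR's quasi-likelihood test of an interaction term over 15652 genes, in which the mutants supply the spread although they carry different alleles, with 2 residual degrees of freedom. This test gave 18 genes with an adjusted p below 0.05, namely 17 (0.109%) with a more positive response in WT and 1 (0.00639%) with a more negative one, while 1049 genes had an unadjusted p under 0.05. Of the 17 genes, 15 differed by less than the 25% level between Dox and Veh in WT itself, and FTH1 and MT2A were the 2 with a higher level. In 13 of the 17, all 3 mutants were lower with Dox by at least 20%. Most of these genes were thus lower with Dox in the mutants and level in WT, and the WT library with Dox had the highest level of the 4 Dox libraries for all 17 genes. The WT library with Veh was likewise above the 3 mutant Veh libraries for 12 of the 17. The number of genes with a more positive response was 80 without the K450R line, 19 without K451R and 32 without K450RK451R. FTH1, AHNAK and JMJD6 lost the call without K451R (differences of 0.55, 0.56 and 0.78) and DDIT4 without K450RK451R (0.43), each in the same direction.

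HILPDA, a lipid droplet protein induced by hypoxia (chromosome 7 from 128095903 to 128098472), had 12155 counts with Veh and 8574 with Dox in WT, which is 1024 CPM against 966 CPM and a log2 ratio of −0.08 (−0.12 to −0.04). In the mutants it went from 731 to 351 CPM (K450R), from 646 to 242 CPM (K451R) and from 444 to 187 CPM (K450RK451R). The WT response exceeded that of the mutants by 1.16 on the log2 scale (standard error 0.12, edgeR adjusted p = 2.4e-06). Further genes that respond to hypoxia factors showed the same contrast. ANKRD37 was at 425 CPM in both WT libraries (log2 ratio 0.00, interval −0.06 to 0.06) against ratios of −0.53, −0.98 and −0.89 in the mutants. The glucose transporter SLC2A1, the glycolytic regulator PFKFB3, the clock-linked repressor BHLHE40 and the mTORC1 inhibitor DDIT4 were at 0.11, 0.03, 0.12 and 0.05 in WT, and at −0.36 or lower in each mutant. As lists, the 34 measured hypoxia targets outside glycolysis had a median of 0.01 in WT with 1 called higher (2.94%, against 4.34% of all genes) and 2 lower (5.88%, against 5.87%). Their median was −0.08, −0.23 and −0.30 in K450R, K451R and K450RK451R. In these lines 11 of 34, 13 of 33 and 14 of 33 were called lower, against 6.08%, 6.88% and 8.24% of all genes. The hypoxia genes that were called lower in WT, CA9 at −0.63 (181 and 87 counts) and CA12 at −0.34, are carbonic anhydrases of the cell surface. VEGFA, the angiogenic growth factor, was at −0.27 (−0.30 to −0.24) in WT and at −0.50, −0.56 and −0.39 in the mutants.

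The group also held the heat shock genes HSPA1B and HSPA6, some immediate-early and signalling genes, JMJD6 and AHNAK. HSPA1B, the inducible HSP70 chaperone (chromosome 6 from 31795515 to 31798031), had 1173 counts with Veh and 938 with Dox in WT, 98.9 CPM and 106 CPM, a log2 ratio of 0.10 (−0.03 to 0.22), and was at −1.15 in each of the 3 mutants. The difference was 1.24 (standard error 0.16, edgeR adjusted p = 8.0e-05). HSPA1B has a near-identical copy, HSPA1A, to which 5 and 3 counts were assigned, so the split between them is uncertain. HSPA6, a strictly stress-induced HSP70 gene, had 184 and 143 counts in WT (0.06, interval −0.27 to 0.38), and with K450R 58 and 1, with K451R 62 and 14 and with K450RK451R 28 and 7. The list of 14 measured heat shock genes had a median of −0.00 in WT and −0.15, −0.15 and −0.08 in the mutants. Other members were lower in WT, with HSPE1 at −0.56, HSP90AA1 at −0.32 and DNAJB1 at −0.19. Among immediate-early and signalling genes, DUSP1, JUNB, GADD45B and ID2 were at 0.18, −0.01, −0.10 and 0.32 in WT. In the mutants DUSP1 lay at −0.25 or lower, JUNB between −0.87 and −0.42, GADD45B between −0.90 and −0.81 and ID2 at −0.79 or lower. The list of immediate-early and MAPK feedback genes had a median of −0.06 in WT, against −0.26, −0.42 and −0.42 in the mutants. JMJD6 and AHNAK were at 0.17 and 0.27 in WT and below 0 in each mutant. Of the genes past this test, HSPA6, HSPA1B, ID2, HILPDA, DUSP1, SLC2A1, AHNAK, FTH1, DDIT4, TMEM80 and MT2A were named by a rule on size. The others described here were singled out after their values were seen. TMEM80, the single gene with a more negative response in WT, had 138 counts with Veh and 52 with Dox (−0.98, interval −1.48 to −0.52) and was at 0.53, 0.49 and 0.92 in the mutants. It overlaps EPS8L2 and DEAF1, and because the use of strand in counting is not given in the sources used here, its count can include their reads.

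**Figure D4:**
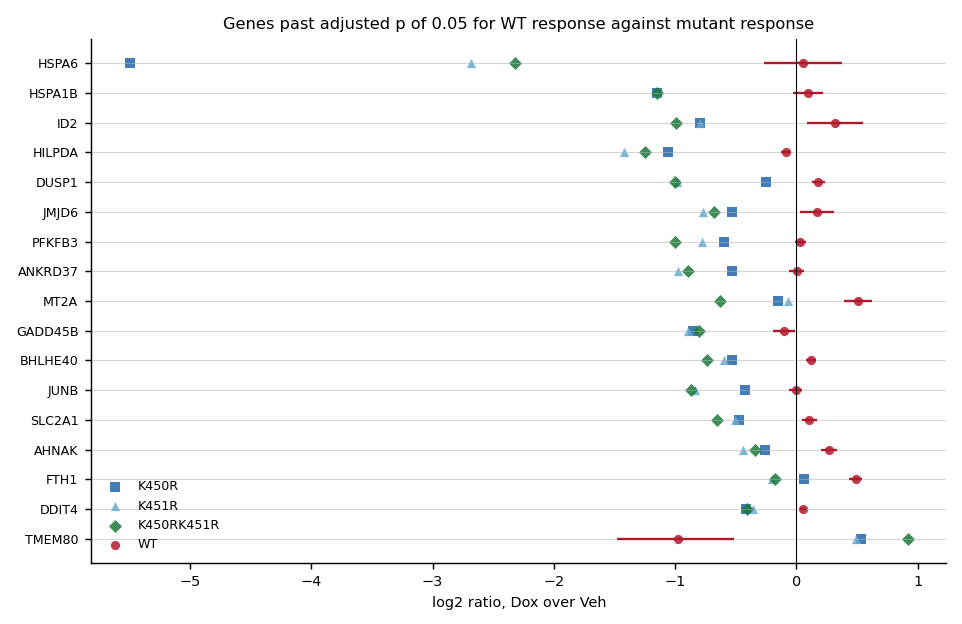
Log2 ratio of Dox over Veh (horizontal axis) in each line for 17 of the 18 genes with an adjusted p under 0.05 in the test of the WT response against the mutant responses, in order of that difference. Red circles are WT with 95% counting intervals, and blue squares, pale blue triangles and green diamonds are K450R, K451R and K450RK451R. WT points lie near 0 for most genes while mutant points lie to the left, FTH1 and MT2A lie to the right in WT, and the K450R value of HSPA6 rests on 1 count with Dox.

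Promoters of 3 of these genes are shown as examples of the response elements for which the groups are known. Each is 300 bases from RefSeq on GRCh38.p14, from 250 bases before the start of the gene, on the gene's own strand, with matches to a motif on either strand in capitals. The motifs are ACGTG for hypoxia factors in ANKRD37 (chr4:185396591-185396890, plus strand), GAANNTTC for heat shock factor in HSPA1B (chr6:31827488-31827787, plus strand) and TGCNCNC for the metal-responsive factor in MT2A (chr16:56608334-56608633, plus strand).

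ANKRD37 promoter: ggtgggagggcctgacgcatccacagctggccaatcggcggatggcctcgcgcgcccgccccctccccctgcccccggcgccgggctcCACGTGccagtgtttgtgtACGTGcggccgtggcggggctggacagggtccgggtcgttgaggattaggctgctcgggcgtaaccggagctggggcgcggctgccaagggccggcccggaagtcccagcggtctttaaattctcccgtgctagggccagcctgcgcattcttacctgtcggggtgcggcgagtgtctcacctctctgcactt
HSPA1B promoter: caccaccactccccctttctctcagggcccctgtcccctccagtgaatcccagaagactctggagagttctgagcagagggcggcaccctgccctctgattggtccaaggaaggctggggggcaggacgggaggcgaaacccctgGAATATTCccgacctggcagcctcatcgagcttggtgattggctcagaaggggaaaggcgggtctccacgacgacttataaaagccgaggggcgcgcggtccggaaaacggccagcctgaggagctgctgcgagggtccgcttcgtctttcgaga
MT2A promoter: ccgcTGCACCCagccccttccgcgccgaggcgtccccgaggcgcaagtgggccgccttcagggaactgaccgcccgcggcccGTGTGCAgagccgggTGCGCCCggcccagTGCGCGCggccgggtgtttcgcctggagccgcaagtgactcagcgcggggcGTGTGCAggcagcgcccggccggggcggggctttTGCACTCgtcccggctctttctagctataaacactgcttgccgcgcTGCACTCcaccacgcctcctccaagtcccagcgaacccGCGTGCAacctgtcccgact

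ACGTG matched 3 times in ANKRD37, of which 2 overlap in a palindrome, and at least 2 matches occurred in 8.82% of all 35116 promoters of this length. The heat shock motif matched once in HSPA1B and is held by 6.77% of all promoters. The metal motif matched 8 times in MT2A, a number reached by 0.0712% of all promoters, although 55.9% hold at least 1 match. Of the 18 genes, 14 had a promoter in the RefSeq table, and 6 of these held ACGTG (21.4% of all promoters), 2 held GAANNTTC and 10 held TGCNCNC. PFKFB3, SLC2A1, AHNAK, JUNB, TMEM80, HSPA1B, HSPA6 and MT2A held no ACGTG in this window. A match describes the letters of the window and is not a binding site.

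Finally, genes that responded to loss of EHMT1 were followed in the WT line, since the siRNA samples share no library with it. With siEHMT1 against siNTC (2 samples each, edgeR), 8 of 14532 genes (0.0551%) were higher and 10 (0.0688%) lower at an adjusted p under 0.05, EHMT1 among the latter. Leaving out 1 of the 4 samples moved the number of genes besides EHMT1 to between 41 and 236, with 41 without siNTC replicate 2 and 236 without siEHMT1 replicate 1. Of the other 17, 16 had at least 50 counts in the WT line. With Dox, 6 of these lay to the side opposite to silencing and 10 to the same side, and their medians were −0.00 for the 7 genes that rose with siEHMT1 and −0.04 for the 9 that fell. OR51E1, the prostate olfactory receptor with the largest rise on silencing (log2 difference 3.08, edgeR adjusted p = 1.1e-06), had 2 counts in each WT library, too few for any comparison. The immunoglobulin receptor PIGR was at 0.16 (−0.17 to 0.49) in WT and the deiodinase DIO1 at 0.22 (−0.24 to 0.67), both to the same side as on silencing. UGT2B28, an enzyme that inactivates androgens by glucuronidation, was 1.1 higher with siEHMT1 and at −0.73 (−1.41 to −0.10) in WT from 67 and 30 counts. It belongs to a family of similar genes that can share reads, and it was at 0.86, 0.15 and 0.53 in the mutants. The mucin-folding gene AGR2 was at −0.30 (−0.60 to 0.00) in WT after a rise of 0.69 on silencing. GIPC1, which fell by 0.84 on silencing, the largest fall besides EHMT1, was at −0.12 (−0.26 to 0.01) in WT. Apart from UGT2B28 and MIR663A, every interval of these genes in WT included 0, and the deeper ones had narrow intervals, such as EPB41L4B at −0.03 (−0.16 to 0.09) and KIF1A at −0.04 (−0.16 to 0.07). ASCC3, BRI3BP, ZNF850, RPS16, ST7 and THUMPD1, which fell by between 0.50 and 0.78 on silencing, were at −0.11, −0.10, −0.11, −0.01, 0.05 and 0.14 in WT, and AZGP1, which rose by 0.76, was at −0.00. MIR663A, whose annotated span includes 2877 bases that match the ribosomal DNA contig of GRCh37 at 91.6% identity, was 0.76 higher on silencing and at 0.45 (0.43 to 0.46) in WT.

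**Figure D5:**
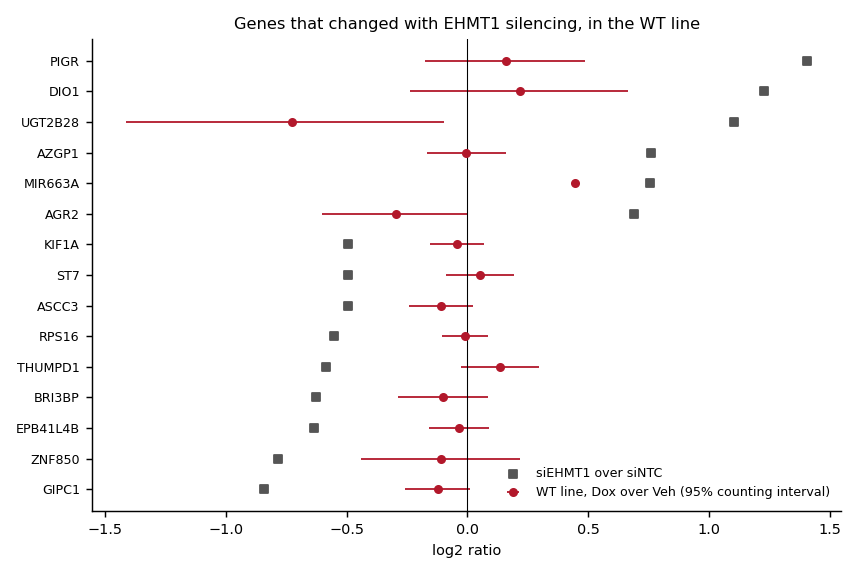
Log2 ratios (horizontal axis) of 15 of the 16 genes that changed with siEHMT1 and had at least 50 counts in the WT line. Grey squares are siEHMT1 over siNTC, and red circles are Dox over Veh in the WT line with 95% counting intervals. The WT values lie close to 0 except those of UGT2B28 at −0.73 and MIR663A at 0.45.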

How the data were processed

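RNA-seq libraries were prepared with a stranded total-RNA kit and sequenced as single-end reads. The authors deposited tables of raw counts per gene without normalization, made on hg19 with STAR 2.7.2 and featureCounts 1.6.4 after FastQC 0.11.9 according to the submitters' processing notes. Whether counting used strand, and which annotation release, is not given in the sources used here. Of 57773 gene identifiers, 55538 were found in GENCODE release 44 lifted to GRCh37, which gave coordinates and overlaps. RefSeq promoters are on GRCh38.p14.

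The columns of a stable-line condition were summed, since nothing says they came from separate cultures and they differed by no more than counting noise. The WT comparison therefore used 1 library a side, with 12407739 and 9060741 counts, and no test. Ratios were computed from TMM-scaled CPM with a prior count of 0.5 per library, and 95% Clopper-Pearson intervals cover counting error only. The response of WT against the mutants was fitted with edgeR 4.0.16 (quasi-likelihood, 8 summed libraries, line, Dox and Dox in WT as terms, Benjamini-Hochberg adjustment over all genes tested). Silencing was fitted with edgeR on 4 samples. The p-values there measure the spread between samples that may be technical.

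Named genes were EHMT1, the 10 highest and 10 lowest ratios among genes with at least 200 counts, the 6 highest and 6 lowest with at least 2000, up to 4 members of each list, the 5 highest and 5 lowest differences past an adjusted p of 0.05, and every silencing gene. Genes that match ribosomal DNA were kept apart, and some genes the rule names are not reported here. Further members of lists and further genes past the threshold were named after their values were seen. The comparison, the gene lists and the rules were chosen with earlier results of these data known.

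Alternatives were other scalings, count minimums and priors, a GC correction, single columns, lines left out, the column number as a replicate block, limma-voom (limma 3.58.1) and DESeq2 1.42.0. A length correction was added after the data were examined. Same-numbered WT columns did not deviate together (Pearson correlation −0.000791 over 9154 genes). Scripts ran in R 4.3.3 and Python 3.11.15 with scipy 1.17.1, BLAST+ 2.17.0+ and samtools 1.23.1. The ratio of 1 library a side and the edgeR test of WT against the mutants were first run on simulated counts. The silencing test and the alternative fits were not.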

Additional observations from a re-analysis of the deposited data

Results flagged for a closer look

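For 18 genes, the Dox response of WT differed from that of the 3 mutant lines by the interaction test of edgeR (quasi-likelihood, adjusted p under 0.05 over 15652 genes). The difference, WT minus mutants on the log2 scale, was 3.22 for HSPA6, 1.24 for HSPA1B, 1.18 for ID2, 1.16 for HILPDA and 0.92 for DUSP1. It was 0.83 for JMJD6, 0.82 for PFKFB3, 0.80 for ANKRD37 and for MT2A, 0.75 for GADD45B, 0.74 for BHLHE40 and 0.70 for JUNB. SLC2A1 followed with 0.65, AHNAK with 0.61, FTH1 with 0.60 and DDIT4 with 0.44, and TMEM80 alone was negative at −1.65. The WT values come from 1 pair of libraries, and the value of HSPA6 rests on counts of 1, 14 and 7 in the mutant libraries with Dox.

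The glycolysis list had a median log2 ratio of 0.06 in WT and of −0.11, −0.08 and −0.15 in K450R, K451R and K450RK451R. The sides are opposite, and the difference was not tested.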

How the results depend on the processing

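Each WT ratio rests on 1 library a side, so its precision is set by counts and the spread between cultures is unknown. With single columns, without replicate 1 or 2, the 60 genes at least 2-fold higher became 20 to 24, the 91 lower 46 to 49, the 397 higher at the 25% level 250 to 274 and the 537 lower 319 to 348. A minimum of 10 counts gave 472, 639, 907 and 1085, one of 1000 counts gave 2, 2, 38 and 77, and a prior count of 5 gave 35 and 44 at 2-fold. The 17 genes with a more positive and the 1 with a more negative response in WT became 40 and 7 without a filter, 80 and 19 without K450R, 32 and 7 without K450RK451R, 19 and 2 without K451R, 26 to 31 and 1 to 2 without a replicate, 46 and 0 with limma-voom, and 18 and 0 with DESeq2. With the replicate block these were 396 and 256, and the silencing genes 98 with 45 to the opposite side in WT. The column number does not pair cultures, and columns under the block are not independent. The 17 silencing genes, 6 of them opposite in WT, became 108 and 48 without a filter, 41 to 236 and 18 to 133 without 1 sample, and 11 with DESeq2. The causes were not tested. Of the 18 genes, DESeq2 called 8, lost ANKRD37, DUSP1 and JUNB and gave 7 no adjusted p. TMEM80 lost its call with limma-voom (−1.65) and without replicate 1 (−1.50), ID2 without replicate 2 (0.94) and DDIT4 with at least 50 counts in every line (0.44).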

Other observations

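Some interferon-stimulated genes were lower with Dox in WT. Of 45, 14 had at least 200 counts, 3 of these (21.4%, against 5.87% of all genes) were called lower at the 25% level and none higher, and their median log2 ratio was −0.14, with 6 of the 14 above 0. In K450R 1 of 12 (8.33%, against 6.08% of all genes) was called lower at this level. In K451R these were 3 of 15 (20%, against 6.88%) and in K450RK451R 2 of 15 (13.3%, against 8.24%). None was called higher at the 25% level in the mutants, but 1 member of the list was called 2-fold higher in each of them. IFI6, a mitochondrial interferon-induced protein, had 156 counts with Veh and 77 with Dox (−0.59, interval −1.01 to −0.20), the transcription factor IRF1 735 and 403 (−0.45, −0.63 to −0.27) and the exonuclease ISG20 530 and 296 (−0.42, −0.63 to −0.21). The antiviral GTPase MX1 had 62 and 22 counts (−1.05, −1.85 to −0.35). ISG15 lay at 0.08. None of these genes passed the edgeR test against the mutants, in which the smallest adjusted p of the 5 was 0.743.

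Among genes of RNA processing outside the nuclear list, SNHG1, a host of small nucleolar RNAs, had 2647 and 1421 counts (−0.48, interval −0.57 to −0.38) and was at −0.57, −0.88 and −0.74 in the mutants. Its list of 13 measured host genes had a median of −0.06 in WT, with 6 above 0 and 2 called lower (15.4%, against 5.87% of all genes). The 7SL RNAs RN7SL1 and RN7SL2, scaffold of the signal recognition particle, were at −0.28 and −0.26 in WT and below 0 in each mutant. Of the 10 measured members of their list of structured noncoding RNAs, 1 was called lower in WT (10%) and 2 were above 0. RPPH1, RMRP, RN7SK and these 2 together took 9.93% of all counts with Veh and 9.88% with Dox. In the sterol list, IDI1, an isomerase of cholesterol synthesis, had 494 and 287 counts (−0.36, −0.58 to −0.15), while the list of 33 had a median of 0.02. SYVN1, the ubiquitin ligase of endoplasmic reticulum degradation, was at −0.57 (−0.81 to −0.34). It was the 1 of 20 measured unfolded protein response genes called lower (5%), and the median of that list was −0.00.

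Genes whose annotation matches the ribosomal DNA contig were read apart. MIR3687 was 2.38-fold higher with Dox in WT, CTD-2328D6.1 had a log2 ratio of 0.91, MIR3648 of 0.52 and MIR663A of 0.45, and AC010970.2 of −0.12. In K450R, CTD-2328D6.1 was at 2.74.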
